A study of Arabidopsis thaliana with 3 samples.

Results

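Among the m6A sites listed in Arabidopsis seedlings, 18274 of 120204 nuclear sites (15.2%) lay 1 to 3 nt from another listed site on the same strand. Such close sites form 9863 pairs, of which 542 were 1 nt apart, 5595 were 2 nt apart and 3726 were 3 nt apart. Members were chosen by position among the listed sites, and a site was listed on its unconverted count and depth, so the number of close sites and their levels are given as a description, without a test. The order of the levels within a pair was not used to choose them, although both sites had to pass the same listing threshold.

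The material was whole seedlings of the model plant Arabidopsis thaliana, taken after 7 days on plates in long days. They form 3 biological replicates of 1 group, for which the labels name no treatment or mutation. Polyadenylated RNA was analysed by CAM-seq, in which a small-molecule catalyst deaminates unmodified adenosine to inosine, read as G, while m6A is left as A. The m6A level of a site is the percentage of its reads that stayed A, and its depth is the number of reads that cover it. Whole seedlings hold many cell types, so a level is an average over all of them. The 3 replicates are given as 1 pooled count per site, so no spread between plants can be stated, and the Wilson intervals and tests below cover counting error only.

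m6A is written on messenger RNA as it is made, by a methyltransferase complex with a catalytic subunit (MTA), its partner (MTB) and accessory proteins such as FIP37, VIR and HAKAI, and it is bound by YTH-domain proteins (the ECT family and CPSF30) and removed by demethylases of the ALKBH family. The enzyme prefers a short motif around the adenosine, classically RAC, where R is A or G. In the notation used here the middle A is the site, Y is C or U, and N is any base. Where the RNA holds several adenosines in a few bases, their motifs overlap and the base next to each adenosine is fixed by its neighbour.

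The sequences of the pairs 1 nt apart show this constraint directly, because the 5′ site of such a pair is always followed by A. Sites are in capitals, 10 bases are shown on either side, the strand is that of the RNA (T stands for U), and the coordinates are those of TAIR10. These are the 3 deepest pairs with both levels of at least 10%, and, with both depths of at least 100, the pair with the highest lower level and the pair with the largest difference.
RPL9 (chr3:16388344-16388365, plus strand): ctatttttggAAtctggaaacg
AT4G25740 (chr4:13107397-13107418, minus strand): gcaaatctggAAtctataatct
AT1G50020 (chr1:18520018-18520039, minus strand): ttgtaaaaagAAtcgttgcttc
CYCT1;3 (chr1:9614232-9614253, plus strand): gtatatctggAAtctatgtttt
AT4G08520 (chr4:5420425-5420446, plus strand): tttttggtggAActtagatctt

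Pairs 2 nt apart share the base between the sites, so that the base after the 5′ site is the base before the 3′ site. The set below holds the 3 deepest pairs with both levels of at least 10%, and, with both depths of at least 100, the 2 pairs with the highest lower level and the pair with the largest difference in each direction.
TCTP (chr3:5669551-5669573, minus strand): ctgtgttggaAgAttctcaagtt
GDCH (chr2:14892109-14892131, plus strand): aaatttgcatAcActctatgacc
CP29 (chr3:19819344-19819366, minus strand): tggtattttgAcAcaatttggct
AT5G61240 (chr5:24632115-24632137, plus strand): gtatagttagAcAcattccacta
AT3G02530 (chr3:528725-528747, minus strand): tagcatatgaAtActatttattt
HEMB1 (chr1:26234761-26234783, plus strand): aaatcatttgAgActattgtgat
ACO1 (chr4:16972850-16972872, minus strand): tcaattggaaAcAttatcactgt

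At 3 nt the 3-letter motifs no longer overlap, so any motif, RAC included, can stand at both sites. Here the 3 deepest pairs with both levels of at least 10% and the 2 pairs with the highest lower level (depths of at least 100) come first. The 2 deepest pairs at any level in which both sites lie in AAC, in UAC and in GAC follow, and all pairs printed up to here lie in the 3′ UTR, in the last exon except in AGT (exon 5 of 6).
FBR12 (chr1:9207206-9207229, plus strand): ttgttgcaagAcaAccatatctat
PMDH2 (chr5:2993533-2993556, minus strand): tgcttctgatAcaActttgtataa
RPS15A (chr1:2408330-2408353, minus strand): tttctctgaaActAcctttctctt
KAS III (chr1:23194989-23195012, plus strand): taatgttaagAcaAcatttctcca
ATFP8 (chr3:3709388-3709411, minus strand): gctgtttaaaAcaActaagaaatg
GAPB (chr1:16129575-16129598, plus strand): ctatgactgaAcaActttgatcat
PSBO2 (chr3:18890957-18890980, minus strand): ttgtattgaaAcaActtctttcta
AGT (chr2:5539321-5539344, minus strand): ctatatttttActAcattatctat
AT1G52300 (chr1:19475144-19475167, minus strand): tcacaagattActActcttaagtg
AT2G33370 (chr2:14143621-14143644, minus strand): ttaagtagagAcgAcaatcttttg
UAP56a (chr5:3556752-3556775, plus strand): gttttctatgAcgAcatttttttc

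Depth at close sites ranged from 20 to 66887 reads with a median of 142 reads, against a median of 102 reads at the other 101930 sites. All 4 marker genes of green tissue (RBCS1A, LHCB1.3, LHCA1 and RCA) carried listed sites, and neither of the 2 seed storage genes (CRU3 and CRA1) had a listed site. Of the 72 sites in the green tissue genes, 44 (61.1%) were close ones, beside 15.2% of all sites. The median depths of these genes were 1542 to 5793 reads, against 107 over all nuclear sites. The part of depth in this share was not tested. Close sites were spread over 5608 of the 15180 genes with a listed nuclear site, with a median of 2 per gene, and 63 genes held 10 or more. A gene name was lacking at 445 close sites, 31 carried 2 gene names, and 101 lay in a sequence context that is listed more than once, where reads can be shared between copies. Linked by steps of at most 3 nt, the close sites formed 8592 runs, of which 7694 (89.5%) held 2 sites, 758 held 3 sites and 140 held 4 or more.

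Close sites were not evenly distributed over distances. At 4 nt, just outside the limit, 4252 pairs were found, and 5154 to 5916 pairs were found at each distance from 5 to 20 nt. Because the reference genome gives every adenosine near a listed site, the share of them that was listed too could be counted. With both directions pooled it was 1.93% of 56199 adenosines at 1 nt, 12.9% of 87050 at 2 nt and 11.0% of 67958 at 3 nt. It was 13% of 65397 at 4 nt and lay between 16.0% and 17.4% at every distance from 5 to 20 nt. At 1 nt the same 542 pairs made up 0.989% of the 54827 adenosines upstream of a listed site and 39.5% of the 1372 downstream of one. These 2 shares differ only in the number of adenosines counted. An adenosine lies 1 nt downstream only where the listed site is followed by A. For the 6 motifs with the most sites (RAC, YAC and RAU) the listed share was 60.6% at 2 nt and 34.3% at 3 nt, against 44.4% to 49.5% at 5 to 20 nt. Only 0.924% of the adenosines at 1 nt had such a motif, against 15.3% at 2 nt, 26.0% at 3 nt and 30.5% to 31.8% at 5 to 20 nt.

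**Figure D1:**
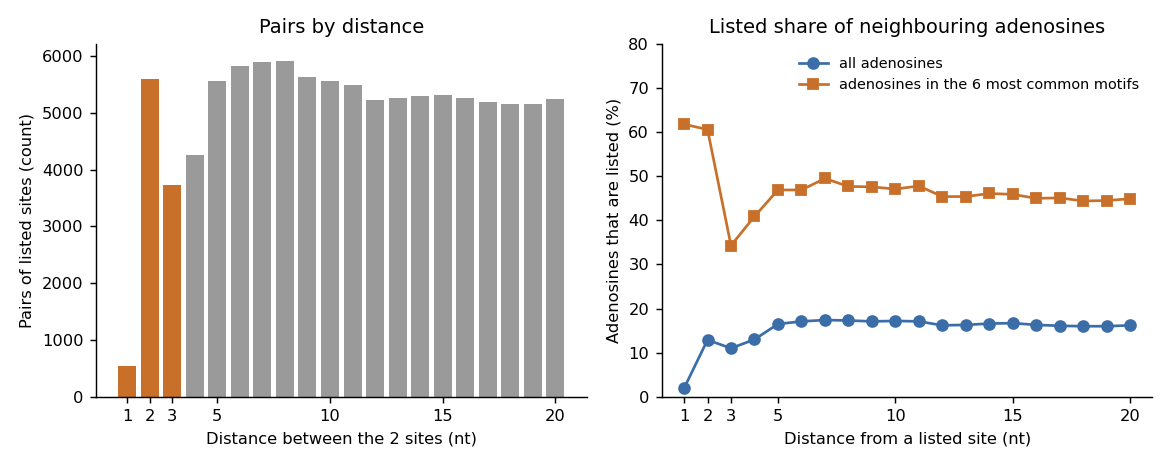
Left, number of pairs of listed nuclear sites on 1 strand (count) at each distance from 1 to 20 nt, with the pairs at 1 to 3 nt in orange. Right, percentage of reference adenosines at each distance upstream or downstream of a listed site that are listed. All adenosines are shown as blue circles and those in RAC, YAC and RAU motifs as orange squares. The first share is lowest at 1 nt (1.93%), the second at 3 nt (34.3%).

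The motifs of the close sites differed from those of the other sites. RAC motifs made up 19.6% of close sites and 42.9% of the others, whereas YAC and RAU motifs together made up 55.6% and 48.3%. Of all CAC sites 37.3% were close to another site, compared with 7.5% of AAC and 7.73% of GAC sites. The highest shares belonged to GAA (60.3% of 748 sites) and AAA (58.2% of 546 sites), motifs with an adenosine after the site. These sites had low levels, with means of 7.13% (SD 5.43, n = 451) for close GAA sites and 7.36% (SD 6.29, n = 318) for close AAA sites.

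Over all motifs the level of close sites had a mean of 30.2% (SD 27.3, n = 18274) and a median of 19%, and that of the other sites a mean of 32.2% (SD 26.6, n = 101930) and a median of 22.4%. Within the 6 most frequent motifs close sites had the higher mean. Close GAC sites had a mean level of 58.6% (SD 29.7, n = 1166) and other GAC sites 42.9% (SD 28.8), a difference of 15.7 points (SE 0.903). The difference was 10.7 points for UAC (38.9% against 28.2%), 7.74 points for AAC (51.9% against 44.2%), 4.20 points for AAU and 1.92 points for GAU. For CAC the means were 24.4% and 23.5%, and for UAU both were 11.8%. Among the rarer motifs close sites had the lower mean in AAG (13.1% against 13.8%), CAU (9.38% against 11.3%), GAA (7.13% against 9.11%), AAA (7.36% against 10.9%), UAG, CAG, CAA and UAA, and the higher in GAG (15.4% against 14.6%). By medians in place of means the difference was 26.3 points for GAC, 13.9 for AAC and 1.78 for AAU. The median depth of close sites was higher in AAC (109 against 83.0 reads), GAC (136 against 91.0) and UAC (129 against 111). With depths of at least 100 reads the difference was 9.88 points for AAC, 17.5 for GAC and 11.5 for UAC. Beyond this limit the part of depth in these differences was not tested.

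Most close sites lay in the 3′ UTR, like most listed sites. Of 17728 close sites placed on a coding transcript, 16853 (95.1%) were in the 3′ UTR, compared with 92.0% of the other sites. Coding sequences held 764 close sites (4.31%, against 7.52%), and 111 (0.626%, against 0.519%) were in the 5′ UTR. The mean level of close sites was 31% (SD 27.4) in the 3′ UTR and 13.7% (SD 17.8) in coding sequences. In the 5′ UTR it was 7.83% (SD 7.54), and the other sites there averaged 16.2% (SD 14.7). The window from -20 to +180 nt of the stop codon held 74.2% of close and 71.6% of other sites, and the median distance downstream of the stop codon was 116 and 110 nt.

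The share of sites that were close to another changed along the 3′ UTR. It was 6.79% in the last 20 nt of the coding sequence, 8.21% in the first 20 nt after the stop codon, and reached 17.9% at 80 to 99 nt. From 200 to 359 nt it ranged from 13.2% to 15.9%. The mean level of close sites went from 24.3% in the last 20 nt before the stop codon to 32.2% at 100 to 119 nt, while that of other sites went from 21.2% to 35.8%.

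**Figure D2:**
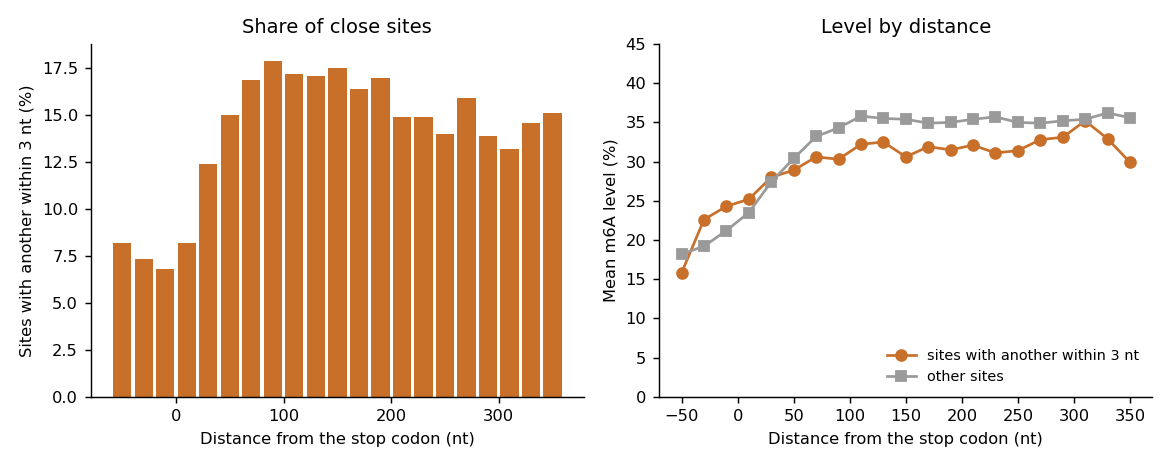
Percentage of sites with another within 3 nt (left) and mean m6A level in percent of these sites (orange circles) and of other sites (grey squares, right), in bins of 20 nt by distance from the stop codon, for bins with at least 500 sites. The share of close sites is highest at 80 to 99 nt (17.9%). The mean level of close sites is above that of other sites from -40 to 39 nt. It is below that of other sites at -60 to -41 nt (15.8% against 18.2%) and from 40 nt onwards.

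Levels of the 2 sites in each pair were compared by Fisher's exact test (two-sided) on unconverted and converted reads, with Benjamini-Hochberg adjustment over all 101102 pairs at 1 to 20 nt, and a pair was taken to differ at an adjusted p under 0.05. Across these pairs 69.0% differed, 35.7% with the 3′ site higher and 33.4% with the 5′ site higher. Of the pairs at 1 to 3 nt, 6627 of 9863 (67.2%) differed, a share near that background when depth is left aside. Close pairs were deeper, with a median of 141 reads at the shallower site against 110 at 4 to 20 nt. The reads of both sites come largely from the same molecules, which the test treats as independent. The share that differed was larger in deeper pairs at 2 nt, where it was 50.7% with 20 to 49 reads at the shallower site and 84.1% with at least 500 reads, and at 3 nt (42.5% and 77.9%). At 1 nt it had no such order, with 39.6%, 61.7%, 52.8%, 54.0% and 59.2% in the 5 depth classes. Pairs at 4 to 20 nt gave 51.8%, 64.4%, 73.1%, 79.1% and 87.3% in these classes. The shares at 1 and 3 nt were lower in every class. Those at 2 nt were lower except with 50 to 99 reads (65.2%).

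The direction differed between the distances. At 1 nt, 293 pairs had the higher level at the 3′ site and 6 at the 5′ site, which is 54.1% and 1.11% of 542 pairs, against the background of 35.7% and 33.4%. At 2 nt, 1685 pairs (30.1%) had the higher level at the 3′ site and 2197 (39.3%) at the 5′ site. At 3 nt the numbers were 1245 (33.4%) and 1201 (32.2%), close to the background when depth is left aside. At 4 nt they were 1564 (36.8%) and 1305 (30.7%).

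**Figure D3:**
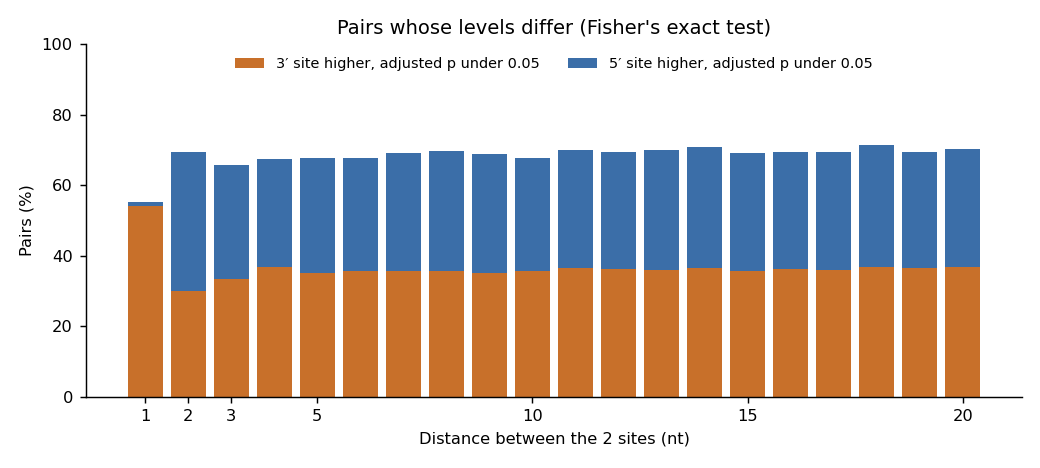
Percentage of pairs at each distance from 1 to 20 nt with a higher level at the 3′ site (orange) or at the 5′ site (blue) at an adjusted p under 0.05 by Fisher's exact test, stacked. The bar at 1 nt is almost wholly orange (54.1% against 1.11%), and the bar at 2 nt has the largest blue part (39.3%).

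The mean levels give the size of these differences. The 5′ site averaged 7.02% (SD 5.73) and the 3′ site 29.5% (SD 28.5) at 1 nt, 33.1% (SD 28.9) and 29.1% (SD 26.2) at 2 nt, and 28.6% (SD 26.7) and 28.4% (SD 26.1) at 3 nt. Just outside the limit, at 4 nt, the means were 30.5% and 33.3%. The median of the difference between the 3′ and the 5′ site was 8.59 points at 1 nt (95% interval 5.45 to 13.2), -1.94 points at 2 nt (-2.63 to -1.33) and 0.244 points at 3 nt (-0.0624 to 0.709), beside 0.714 points (0.575 to 0.872) at 4 to 20 nt. Pairs of 1 gene share reads, so these intervals are a description. Differences of either sign were large in single pairs, with a median size of 9.20, 24.9 and 18.3 points at 1, 2 and 3 nt.

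Levels within a pair were compared across pairs as well. Spearman's rho across pairs was 0.438 at 1 nt (542 pairs), 0.0164 at 2 nt (5595 pairs) and 0.133 at 3 nt (3726 pairs), and 0.0740 to 0.141 at 4 to 20 nt. The sites of a pair share reads and depth, and the lowest level that could be listed depends on depth. Combinations in which the 5′ site is the higher are pooled here with others in which the 3′ site is. Among pairs with 1 motif at both sites rho was 0.267 for CAC and 0.335 for UAU at 2 nt, and 0.358 for AAC, 0.445 for UAC, 0.246 for AAU and 0.175 for GAU at 3 nt. Both levels were at least 50% in no pair at 1 nt, in 204 pairs (3.65%) at 2 nt and in 176 pairs (4.72%) at 3 nt, beside 8.31% of the pairs at 4 to 20 nt.

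**Figure D4:**
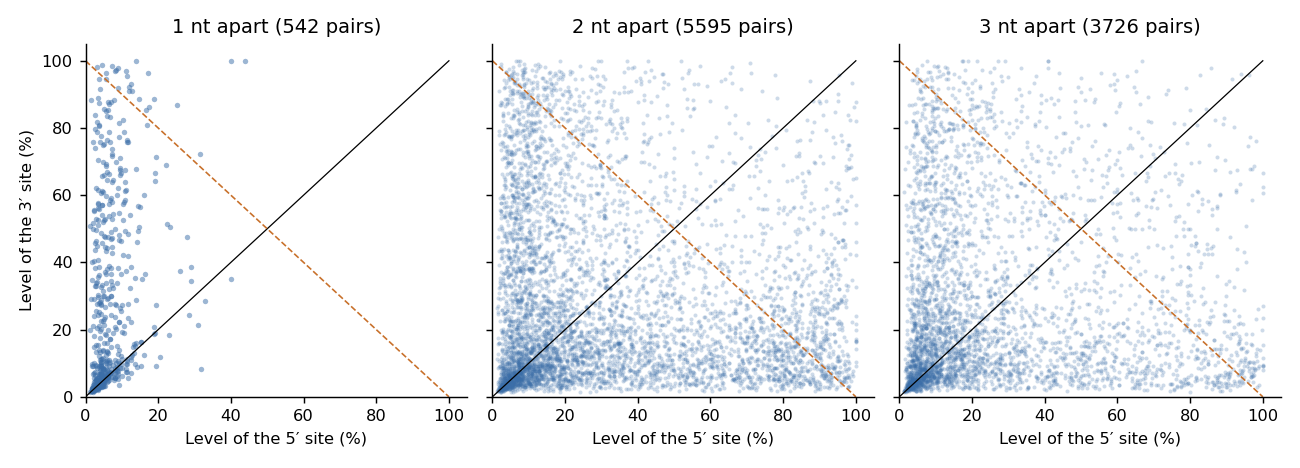
m6A level (%) of the 3′ site against that of the 5′ site, 1 point per pair, for pairs 1, 2 and 3 nt apart; the solid line marks equal levels and the dashed line a sum of 100%. At 1 nt most points lie near the left edge (median level of the 5′ site 5.36%) with a few above 30%, and at 2 and 3 nt the points fill both arms along the axes.

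Pairs 1 nt apart joined an adenosine in GAA (311 pairs), AAA (219 pairs), CAA (9) or UAA (3) to a 3′ site in AAU (249 pairs), AAG (132), AAA (89) or AAC (72). The difference was greatest for an AAU site preceded by GAA: in these 154 pairs the GAA adenosine averaged 8.03% (SD 5.92) and the AAU adenosine 49.4% (SD 26.5), and the AAU site was higher in 137 pairs and lower in 1 at an adjusted p under 0.05. Where AAA followed AAA, the 46 pairs averaged 8.02% and 7.90%, and 5 of them differed.

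RPL9, a ribosomal protein gene on chromosome 3, had the deepest pair with both levels of at least 10%. Its GAA adenosine was unconverted in 205 of 1959 reads (10.5%, Wilson 95% interval 9.19 to 11.9) and the AAU adenosine next to it in 1124 of 1934 reads (58.1%, 55.9 to 60.3). In AT4G25740, annotated as an RNA-binding protein with an S10 domain, the levels were 14.6% and 50.6% (adjusted p = 6.31e-79, Fisher's exact test). In AT1G50020 they were 12.8% of 561 reads and 91.1% of 570 reads. CYCT1;3, which encodes a cyclin T, had the highest lower level among pairs at this distance with both depths of at least 100, with 31.4% (24.9 to 38.7) at GAA and 72.4% (65.2 to 78.5) at AAU. The next pair by this rule, in AT1G33230, had 27.9% (20.7 to 36.4) of 122 reads at GAA and 47.5% (38.8 to 56.4) of 120 reads at AAG (adjusted p = 0.00369, Fisher's exact test). In each of these pairs the intervals were apart.

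The opposite extreme at 1 nt was AT4G08520, a gene of the SNARE-like superfamily, where the GAA adenosine was unconverted in 27 of 890 reads (3.03%) and the adjoining AAC adenosine in 843 of 859 reads (98.1%). Here an adenosine next to a nearly fully modified AAC site was listed, at a level of a few percent. The adenosine just upstream was listed for 72 of 32219 AAC sites (0.223%, Wilson 95% interval 0.178 to 0.281), although a level of 6.85% would have been enough at the median of these sites.

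For AAU sites the upstream adenosine was listed more often, in 249 of 18483 cases (1.35%, 1.19 to 1.52), and the share was larger in each higher class of AAU level, a breakdown made after the values were seen. It was 0.533% (0.410 to 0.693) for AAU levels under 20% and 1.46% (1.19 to 1.81) for 20 to 50%. It was 3.91% (3.14 to 4.87) for 50 to 80% and 7.89% (5.68 to 10.9) for 80% or more. These intervals take the sites as independent and are a description. The upstream adenosine of AAC sites showed no such order, with 0.397%, 0.148%, 0.123% and 0.216% in the same classes. The level needed for listing was 4.96% at the median of the lowest AAU class and 7.25% at that of the highest. Among AAU sites the share was 1.81% where the base before the upstream adenosine was G and 0.187% where it was U.

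Pairs 2 nt apart were sorted by the shared base between the sites. With C between them, as in AACAC, the 5′ site was usually the higher. In 732 AACAC pairs the AAC adenosine averaged 61.4% (SD 27.6) and the CAC adenosine 21.4% (SD 18.0), and of the pairs that differed 577 had the higher level at AAC and 34 at CAC. In 407 GACAC pairs the means were 58.1% (SD 28.2) and 26.7% (SD 20.7), with 296 and 28 pairs. Where AAC or GAC was followed by CAU the gap was wider: 129 GACAU pairs averaged 74.2% and 8.19%, and 122 of them had the higher level at GAC and 0 at CAU. UAC and CAC were closer, at 36.8% and 23.4% in 592 pairs, of which 300 were higher at UAC and 99 at CAC.

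With U between the sites the side with the higher mean went with the base after the 3′ site. In 535 AAUAC pairs the AAU adenosine averaged 25.2% (SD 20.1) and the UAC adenosine 48.5% (SD 26.4), and in 417 GAUAC pairs the means were 23.3% and 54.8%. In 412 GAUAU pairs, by contrast, GAU averaged 31.7% (SD 26.4) and UAU 12.4% (SD 10.7). With G between the sites and C or U after the 3′ site, the 3′ site had the higher mean, at 80.5% against 9.92% in 95 AAGAC pairs and 36.5% against 15.3% in 319 AAGAU pairs. Where A followed the 3′ site, its mean was the lower, at 6.68% against 9.64% in 46 AAGAA pairs. All 93 AAGAC pairs that differed were higher at GAC.

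With the same motif at both sites the order differed between motifs. In 339 CACAC pairs the means were 28.0% (SD 20) at the 5′ and 26.8% (SD 18.8) at the 3′ site, and the median difference was -0.721 points (-2.81 to 1.19). Single CACAC pairs were unequal all the same, with 91 higher at the 5′ site and 69 at the 3′ site. In 125 UAUAU pairs the means were 14.7% (SD 12.8) and 8.73% (SD 6.36), with a median difference of -2.87 points (-4.98 to -1.27), and 41 pairs were higher at the 5′ site and 9 at the 3′ site.

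Listing within these motifs was one-sided. Of 769 listed CAC sites preceded by AA, the AAC adenosine 2 nt upstream was listed for 732 (95.2%), whereas of 1806 listed AAC sites followed by AC the CAC adenosine was listed for 732 (40.5%). For GACAC the shares were 92.7% of 439 CAC sites and 49.8% of 818 GAC sites. In AAUAC the order was turned: the UAC adenosine was listed for 90.8% of 589 AAU sites, and the AAU adenosine for 32.7% of 1634 UAC sites. AAC sites whose CAC neighbour was listed averaged 61.4% at a median depth of 107 reads, and those whose neighbour was not listed averaged 34.4% (SD 25.4, n = 1074) at 67.0 reads. The part of depth in this difference was not tested.

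TCTP, the gene of the translationally controlled tumour protein, a growth regulator, had the deepest pair at 2 nt with both levels of at least 10%. Its AAG adenosine was unconverted in 5715 of 28640 reads (20%, 19.5 to 20.4) and the GAU adenosine in 16207 of 26598 reads (60.9%, 60.3 to 61.5). GDCH, the H protein of the glycine decarboxylase complex of photorespiration, had 33.3% (32.4 to 34.3) at UAC and 25.3% (24.4 to 26.3) at CAC (adjusted p = 1.11e-30, Fisher's exact test). CP29, a chloroplast RNA-binding protein, went against the order usual for GACAC, with 25% at GAC and 52.2% at CAC (adjusted p = 1.11e-303, Fisher's exact test).

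With depths of at least 100, the pairs with the largest differences held a nearly fully modified site beside a weak one. In HEMB1, an enzyme of tetrapyrrole synthesis, 3 listed adenosines followed each other within 5 nt. The GAG adenosine was unconverted in 34 of 1420 reads (2.39%, 1.72 to 3.33), the GAC adenosine 2 nt downstream in 1457 of 1472 reads (99%, 98.3 to 99.4), and the UAU adenosine 3 nt further on in 56 of 1626 reads (3.44%, 2.66 to 4.45). The middle site was thus unconverted in nearly every read and its neighbours on both sides in few. How many of the few are residual unconverted adenosines without m6A was not tested. In ACO1, an aconitase, the AAC adenosine was unconverted in 475 of 485 reads (97.9%) and the CAU adenosine 2 nt downstream in 13 of 461 reads (2.82%).

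At 3 nt both sites can carry a strong motif, and AACAAC was the most frequent combination with 367 pairs. Its 5′ sites averaged 36.7% (SD 25.5) and its 3′ sites 42.0% (SD 25.9), with a median difference of 2.78 points (0.334 to 5.92). In 237 UACUAC pairs the means were 24.7% (SD 19.7) and 27.5% (SD 22.2). In RAU motifs the 5′ site was the higher: 123 AAUAAU pairs averaged 35.5% (SD 27.4) and 10.3% (SD 8.65), and 165 GAUGAU pairs 27.3% (SD 26.1) and 11.6% (SD 9.54). At 4 nt, 309 pairs with AAC at both sites averaged 39.5% and 57.7%.

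The base 2 nt before the 5′ site varied in these same-motif pairs while the base 2 nt before the 3′ site was fixed, and the pairs were split by it after the values had been seen. Among AACAAC pairs with a purine there, 240 pairs averaged 45.9% (SD 25.6) at the 5′ site and 37.9% (SD 24.9) at the 3′ site, and the 5′ site was the higher in 152. Among those with a pyrimidine, 127 pairs averaged 19.4% (SD 13.4) and 49.8% (SD 26.1), and the 3′ site was the higher in 117. Of the pairs that differed by the test, 87 were higher at the 5′ and 31 at the 3′ site with a purine, and 0 and 89 with a pyrimidine. AAUAAU pairs averaged 48.3% and 10.2% with a purine (n = 80) and 11.5% and 10.5% with a pyrimidine (n = 43), and GAUGAU pairs 48.6% and 11.9% (n = 73) and 10.4% and 11.4% (n = 92). UACUAC pairs were less apart, at 30.9% and 29.7% with a purine (n = 107; 33 higher at the 5′ and 26 at the 3′ site) and 19.6% and 25.6% with a pyrimidine (n = 130; 26 and 53). GACGAC pairs averaged 48.5% and 23.5% with a purine (n = 19) and 18.9% and 35.2% with a pyrimidine (n = 19). In the AAU and GAU pairs the mean of the 3′ site stayed between 10.2% and 11.9% in both classes.

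Among the pairs at 3 nt with both levels of at least 10%, the deepest was that of FBR12. This gene, which encodes the translation factor eIF-5A, had 56.0% (55.0 to 57.0) of 9407 reads unconverted at GAC and 22.3% (21.4 to 23.2) of 8805 reads at AAC. PMDH2, a peroxisomal malate dehydrogenase, had 12.3% at UAC and 32.1% at AAC (adjusted p = 2.07e-220, Fisher's exact test). RPS15A, a protein of the small ribosomal subunit, had 83.6% (82.7 to 84.4) at AAC and 11.0% (10.2 to 11.7) at UAC. The AAC site was thus the higher in 2 of these 3 genes and the lower in FBR12, where its partner lay in GAC.

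Same-motif pairs of single genes ranged from equal to unequal. In PSBO2, a subunit of the oxygen-evolving complex of photosystem II, the AAC adenosines were unconverted in 1806 of 4784 reads (37.8%) and 1814 of 4763 reads (38.1%), and the difference did not pass the test (adjusted p = 0.813, Fisher's exact test). GAPB, a subunit of the Calvin cycle glyceraldehyde-3-phosphate dehydrogenase, had 1.58% and 1.67% at AAC sites 1 and 4 nt from the stop codon (adjusted p = 0.702, Fisher's exact test). These 2 levels, at depths of 10496 and 12028 reads, lie near the 1% background rate behind the p-value used for listing. Their equality may thus say little about methylation. In AGT, the alanine:glyoxylate aminotransferase of photorespiration, the UAC adenosines had 1.49%, also near that rate, and 11.4% (adjusted p = 1.42e-237, Fisher's exact test). In AT1G52300, a zinc-binding ribosomal protein gene, they had 10.1% and 29.0% (adjusted p = 3.11e-140, Fisher's exact test). The GAC adenosines of AT2G33370, a ribosomal protein gene, had 68.8% and 52.5% (adjusted p = 1.75e-21, Fisher's exact test), and those of UAP56a, an RNA helicase gene, 3.37% and 35.3% (adjusted p = 6.62e-109, Fisher's exact test). In the sequences above, the base 2 nt before the 5′ site is a purine in PSBO2, GAPB and AT2G33370 and a pyrimidine in AGT, AT1G52300 and UAP56a. The 3′ site was the higher in each of the latter 3 genes.

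**Figure D5:**
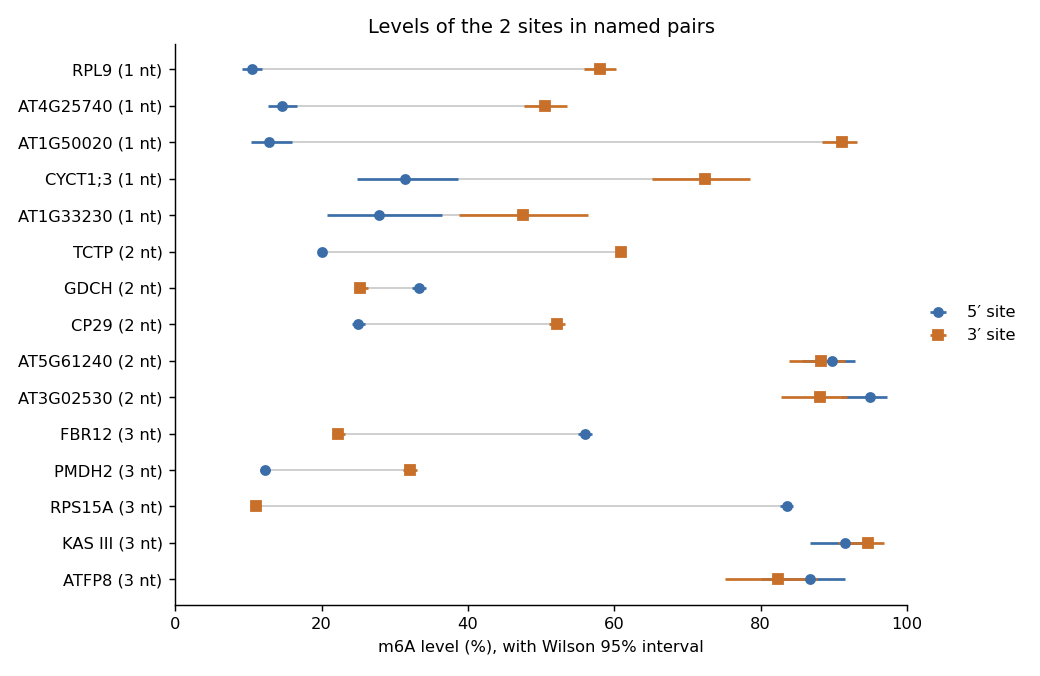
m6A level (%) of the 5′ site (blue circles) and the 3′ site (orange squares) in the 3 deepest pairs with both levels of at least 10% and the 2 pairs with the highest lower level (depths of at least 100) at each distance, with Wilson 95% intervals. The sites of RPS15A lie farthest apart at 3 nt (83.6% and 11.0%), and the intervals of AT5G61240, AT3G02530, KAS III and ATFP8 overlap within each pair.

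Whether single molecules carried both marks can be bounded from the counts. If every read over the shallower site also covers the deeper one, the sum of the 2 unconverted counts minus the greater depth is the smallest number of reads unconverted at both. This number was above 0 in 1301 pairs (13.2%, Wilson 95% interval 12.5 to 13.9), beside 14.6% of pairs at 4 to 20 nt. By distance it was 18 pairs (3.32%) at 1 nt, 810 (14.5%) at 2 nt and 473 (12.7%) at 3 nt. Depths within a pair differed by a median of 4.76% at 1 to 3 nt and 19.9% at 4 to 20 nt. The share at 4 to 20 nt is therefore not a like comparison. The bound reached at least 20% of the reads in 492 pairs and at least 50% in 114 pairs, with a maximum of 85.4%. Of the pairs with a number above 0, 139 were GACAC pairs, which is 34.2% of all GACAC pairs, and 200 were AACAC pairs (27.3%).

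KAS III, the condensing enzyme that starts plastid fatty acid synthesis, had both AC adenosines almost fully modified, with 182 of 199 reads (91.5%) at GAC and 192 of 203 reads (94.6%) at AAC (adjusted p = 0.303, Fisher's exact test). At least 171 reads (84.2%) were unconverted at both. In AT3G02530, a chaperonin subunit, 189 of 199 reads (95%) were unconverted at AAU and 177 of 201 (88.1%) at UAC (adjusted p = 0.0281, Fisher's exact test), so that at least 165 reads (82.1%) carried both. In AT5G61240, a leucine-rich repeat protein gene, the levels were 89.8% at GAC and 88.2% at CAC (adjusted p = 0.658, Fisher's exact test), with at least 214 reads (76.7%) in common. ATFP8, a Ras-related GTPase gene, had 86.8% and 82.3% at its AAC adenosines (adjusted p = 0.391, Fisher's exact test), with at least 93 reads (66.0%). A read with more than 3 unconverted adenosines had been removed by the authors, and the part of that filter in these counts was not tested.

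The 12 genes of the m6A pathway list held 94 listed sites. Of these, 10 (10.6%), in 4 genes, were close ones, beside 15.2% of all nuclear sites. In MTB, the partner subunit of the methyltransferase, the AAU adenosine was unconverted in 8 of 55 reads (14.5%, 7.56 to 26.2) and the UAC adenosine in 54 of 55 reads (98.2%, 90.4 to 99.7; adjusted p = 1.43e-20, Fisher's exact test). FIP37 had 13% of 77 reads at AAU and 97.8% of 89 reads at CAC 3 nt downstream (adjusted p = 4.70e-32, Fisher's exact test). A second FIP37 pair, 2 nt apart, had 10.4% and 20.8% and did not pass the test (adjusted p = 0.233, Fisher's exact test). Among the demethylases, ALKBH9B had 19.6% at UAC and 52.9% at CAC (adjusted p = 0.00151, Fisher's exact test) and ALKBH10B had 11.1% of 36 reads and 37.5% of 48 reads at neighbouring adenosines (adjusted p = 0.0172, Fisher's exact test). MTA, VIR, HAKAI, ECT2, ECT3, ECT4 and CPSF30 had 5 to 14 listed sites each but none close to another, and FIO1 had no listed site.

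Longer runs of close sites were of another make-up. In the 36 runs of 5 or more sites, 40.8% of the 196 sites were followed by A, against 3.27% of the sites in runs of 2. The ratio of the greatest to the lowest depth within a run had a median of 1.68 in these runs and 1.11 in runs of 3, and the highest level of a run had a median of 21.3% and 52.1%. The 3 runs of 7 sites are printed here, with the sites in capitals, to show what such runs look like.
c-NAD-MDH1 (chr1:1189200-1189216, minus strand): gaaaAgAAgAAAAttgg
CA2 (chr5:4762555-4762572, plus strand): aataAAtAAAtAaAtcat
RCA (chr2:16572666-16572684, minus strand): gtgaAAgaAgAcAAAcaaa

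In c-NAD-MDH1, a malate dehydrogenase gene, the run lay 206 to 214 nt after the stop codon. Its levels in order from the 5′ end were 7.25%, 3.37%, 24.4%, 4.32%, 9.25%, 3.46% and 57.4%, with depth going from 1587 to 755 reads. The high values belonged to an AAG and to the final AAU adenosine, whereas the other 5 were below 10%. The neighbouring AAA adenosines at 9.25% and 3.46% were 1 of the 6 pairs at 1 nt with the higher level at the 5′ site (adjusted p = 8.10e-06, Fisher's exact test).

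In CA2, a carbonic anhydrase gene, the levels were 2.42%, 4.37%, 3.44%, 2.58%, 7.51%, 3.01% and 7.66%, and depth fell from 1857 to 457 reads along the run. In RCA, which encodes rubisco activase, the run lay in the coding sequence. There the levels were 2.51%, 2.14%, 3.47%, 8.49%, 3.80%, 4.92% and 7.89%, and depth fell from 1273 to 190 reads over 11 nt. No site of either run reached 10%. RCA also had the most close sites of any gene, 21 of its 30 listed sites, followed by AT3G42050 with 20 of 33 and RPL15 with 18 of 30.

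Pairs with such a change of depth were counted after this had been seen. Depths differed by 20% or more in 65 pairs (12.0%) at 1 nt, 226 (4.04%) at 2 nt and 313 (8.40%) at 3 nt. In these pairs the mean levels of the 5′ and 3′ sites were 7.30% and 8.80% at 1 nt, 16.6% and 19.1% at 2 nt, and 20.5% and 22.6% at 3 nt. In the remaining pairs they were 6.98% and 32.3%, 33.8% and 29.6%, and 29.3% and 29.0%. The median difference in depth between the sites of a pair was 3.89%, 4.14% and 6.16% at 1, 2 and 3 nt. Without the pairs of unequal depth, 285 pairs at 1 nt were higher at the 3′ site and 3 at the 5′ site, 1636 and 2164 at 2 nt, and 1167 and 1140 at 3 nt. The part of the change in depth in the levels was not tested.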

How the data were processed

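Adapters were, per the labels and methods, trimmed by the authors with Cutadapt. They extracted a molecular barcode, mapped to TAIR10 with hisat2-3n (versions not given in the sources used here) and removed reads having many mismatches, more than 3 unconverted adenosines or too large a share of them unconverted. The table deposited by the authors gives raw counts per site (depth and unconverted reads) and a binomial p-value, pooled over 3 samples of 1 group. The lowest depth was 20 and the largest deposited p-value 9.99e-04, and recomputing it at a background rate of 1% matched to a relative difference of 9.56e-12. These values match a threshold of 0.001, as in the study's main text; its supplementary methods name a stricter one. Depth per replicate is unknown here.

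Levels, pairs and runs were computed with Python 3.11.15, pandas 2.3.3, numpy 2.4.6 and scipy 1.17.1. Wilson 95% intervals cover counting error only, intervals of medians (order statistics) reflect the spread over pairs taken as independent, and p-values measure no spread between plants. All 120204 nuclear sites were A in the RefSeq genome (TAIR10.1). Of these, 115480 were placed on the gene's coding transcript of greatest coding length (ties by exon length). Sequences are from the deposited contexts, and gene names from RefSeq. Simulated pairs gave 121 of 200 differences of 20 points and 4 calls without a difference, over 4000 pairs at 1 to 3 nt. Their sites were drawn independently and only 200 pairs had a difference, so these rates do not carry over to the real pairs.

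Named pairs share 1 gene name and are, per distance, the 3 deepest with both levels of at least 10%, the 2 with the highest lower level and the largest called difference each way (both depths at least 100), the 3 longest runs, and the 2 deepest same-motif pairs at 3 nt for AAC, UAC and GAC. The deepest pair at 4 nt, in PSBR, had 26.7% and 11.1%. The members, lists and tests were chosen with earlier results of these data known. The closing part gives the alternatives: distance, depth, level and p-value limits, repeated contexts, Holm adjustment, an exact McNemar test, and other averages.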

Additional observations from a re-analysis of the deposited data

Results flagged for a closer look

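Sites on the organelle genomes entered none of the counts above. The table lists 65 of them, and 17 pairs of these lie 1 to 3 nt apart, over 22 sites, all on the plastid genome. They were set apart because close sites were taken from the nuclear chromosomes only. There is no control sample to compare them with. Their levels ran from 1.35% to 20% at depths of 25 to 9414 reads, and most of the sites were adenosines followed by A.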

How the results depend on the processing

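A limit of 2 nt left 11718 close sites and 6137 pairs, sites of at least 100 reads gave 11110 and 6075, and sites of at least 10% gave 9581 and 4965; fewer sites enter by construction. With levels of at least 10%, 55 pairs at 1 nt, 824 at 2 nt and 587 at 3 nt were higher at the 3′ site, and 0, 1196 and 558 at the 5′ site. Depths of at least 100 reads left 1097 pairs higher at the 3′ site at 2 nt. Holm adjustment left 0 pairs higher at the 5′ site at 1 nt, and 804 and 786 pairs higher at the 3′ and 5′ site at 3 nt. Leaving out pairs whose depths differed by 20% or more, a choice made after seeing the data, left 3 pairs higher at the 5′ site at 1 nt. The pooled counts do not show how many reads were unconverted at only 1 of the sites. An exact McNemar test therefore took the largest number of such reads that the counts allow, on the pairs with depths within 5%. This test gave 1 pair higher at the 5′ site at 1 nt. It gave 923 and 1294 pairs higher at the 3′ and 5′ site at 2 nt, and 528 and 531 at 3 nt. On those same pairs it called 223, 2217 and 1059 pairs at 1, 2 and 3 nt and Fisher's exact test 226, 2341 and 1107, of which 223, 2216 and 1058 were called by both.

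The median difference at 1 nt was 30.9 points with levels of at least 10% and 18.4 points over gene means, and at 2 nt it was -4.98 and -2.78 points. At 3 nt it was 1.25 points with that level limit and -0.101 points with 100 reads, so its sign was not settled. The cause of these moves was not tested. Reads unconverted at both sites were required in 8.94% of pairs with 100 reads and in 10.4% with 5% added to the greater depth. The listed share of adenosines at 1, 2 and 3 nt was 3.02%, 16.5% and 14.4% around sites of 100 reads, 61.8%, 60.6% and 34.3% in RAC, YAC and RAU motifs, and 1.49%, 13.5% and 11.4% around 3′ UTR sites. Of the results under all alternatives 46 stayed within their limits and 44 moved; besides the median at 3 nt, whose interval spans 0, no value changed sign. No paired analysis was possible because the pooled counts carry no replicate numbers, and no replicate could be left out. Depth sets the lowest level that can be listed, so a weak neighbour can be listed only at high depth.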
